A study of Mus musculus with 24 samples.

Results

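The 10 genes described here encode the enzymes of the lower part of glycolysis, from aldolase to pyruvate kinase: Aldoa and Aldoc (aldolase), Tpi1 (triose phosphate isomerase), Gapdh (glyceraldehyde-3-phosphate dehydrogenase), Pgk1 (phosphoglycerate kinase), Pgam1 (phosphoglycerate mutase), Eno1 and Eno2 (enolase), and Pkm and Pklr (pyruvate kinase). They were chosen by symbol, through the RefSeq accession of each array probe, and all 10 were among the 17736 genes tested. Kidney RNA of 24 male Crl:CD1(ICR) mice was measured on single-colour Agilent arrays, 1 array per mouse. The Sham group (n = 6) received vehicle intravenously and normal feed. The DKD group (n = 9), a model of early diabetic kidney disease, received 90 mg/kg of alloxan, which destroys insulin-producing beta cells, and normal feed. The DKD+enarodustat group (n = 9) received the same alloxan dose and feed with 0.01% (w/w) enarodustat, which stabilises hypoxia-inducible factor (HIF) by blocking the enzymes that hydroxylate it. Alloxan or vehicle was given 3 days before the animals were grouped, the diabetic groups were matched on blood glucose and body weight, and kidneys were taken 16 days after grouping. No group received enarodustat without alloxan, so the drug comparison holds for diabetic kidneys only. The RNA came from kidney tissue with all its cell types, in which fewer cells of a type and less RNA per cell cannot be told apart.

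Aldolase splits fructose-1,6-bisphosphate into triose phosphates, which the following enzymes turn into pyruvate with a net yield of ATP. Several steps are served by isozymes encoded by separate genes: Aldoa, Eno1 and Pkm are widely expressed, Aldoc and Eno2 are best known from brain and neurons, and Pklr from liver and red cells. Genes of this pathway are classical targets of HIF-1, which binds a short core sequence, ACGTG or GCGTG, near many of them. In the kidney, proximal tubule cells make glucose and burn mainly fatty acids, while more distal segments use glycolysis.

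The windows from 250 bases before to 50 bases after the annotated transcription starts were read for this core, since the isozymes of 1 step can differ in it. RefSeq (GRCm38.p6) gave 17 such windows for the 10 genes. ACGTG or GCGTG, searched on both strands, was present in 11 of the 17 windows and in at least 1 window of 7 of the 10 genes; some of the windows of 1 gene overlap, and ACGTG also lies within the E-box CACGTG. Over all 32851 windows of this length, 43.8% held either sequence, 19.6% ACGTG, 32.4% GCGTG and 7.15% CACGTG. The GC content had a median of 57.3% in the members' windows and 52.7% in all windows. No window of Eno2, Tpi1 or Pklr held the core, and it was found in both windows of Aldoc, all 3 of Eno1, 1 of 2 of Pkm, 2 of 3 of Aldoa, and the single windows of Gapdh, Pgam1 and Pgk1. A match describes the letters only, and its absence from a window of 300 bases says nothing about the factor. The windows below are shown for the isozymes whose levels moved most (Aldoc, Eno2), for both pyruvate kinase genes, and for Pgk1 and Pgam1, a core-bearing pair of which Pgam1 alone passed the test in the drug comparison. Capitals mark the core, which reads CACGT or CACGC where it lies on the opposite strand, and each sequence runs 5′ to 3′ on the strand of the gene.
Aldoc (chr11:78322823-78323122, + strand): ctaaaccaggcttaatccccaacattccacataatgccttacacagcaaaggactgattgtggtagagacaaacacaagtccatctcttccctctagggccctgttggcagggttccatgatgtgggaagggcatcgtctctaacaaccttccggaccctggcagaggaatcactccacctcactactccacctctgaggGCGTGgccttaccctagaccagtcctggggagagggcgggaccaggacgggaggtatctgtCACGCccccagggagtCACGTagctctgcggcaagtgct
Pgk1 (chrX:106186850-106187149, + strand): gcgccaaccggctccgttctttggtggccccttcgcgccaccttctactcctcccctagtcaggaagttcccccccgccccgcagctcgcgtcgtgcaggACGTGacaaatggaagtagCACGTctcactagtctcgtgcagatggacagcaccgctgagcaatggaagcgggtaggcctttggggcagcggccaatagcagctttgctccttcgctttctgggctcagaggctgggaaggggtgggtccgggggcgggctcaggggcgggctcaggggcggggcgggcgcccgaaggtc
Pgam1 (chr19:41911621-41911920, + strand): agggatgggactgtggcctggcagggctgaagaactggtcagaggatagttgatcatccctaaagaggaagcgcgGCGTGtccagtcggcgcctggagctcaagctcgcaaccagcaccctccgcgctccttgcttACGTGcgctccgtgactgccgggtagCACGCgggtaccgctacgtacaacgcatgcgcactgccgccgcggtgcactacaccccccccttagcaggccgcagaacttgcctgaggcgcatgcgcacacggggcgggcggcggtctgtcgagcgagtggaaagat
Eno2 (chr6:124769624-124769923, − strand): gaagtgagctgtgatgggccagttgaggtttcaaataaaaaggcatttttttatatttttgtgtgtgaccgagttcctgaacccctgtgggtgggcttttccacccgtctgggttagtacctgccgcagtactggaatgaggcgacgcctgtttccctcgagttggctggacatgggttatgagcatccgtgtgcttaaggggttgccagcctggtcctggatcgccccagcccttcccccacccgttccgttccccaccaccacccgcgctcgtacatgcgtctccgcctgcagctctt
Pkm (chr9:59656977-59657276, + strand): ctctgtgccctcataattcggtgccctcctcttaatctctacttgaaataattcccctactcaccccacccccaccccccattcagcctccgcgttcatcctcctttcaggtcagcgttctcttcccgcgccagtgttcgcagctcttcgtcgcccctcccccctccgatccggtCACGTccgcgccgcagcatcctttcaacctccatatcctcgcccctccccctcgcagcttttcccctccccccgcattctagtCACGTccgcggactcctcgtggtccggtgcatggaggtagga
Pklr (chr3:89136373-89136672, + strand): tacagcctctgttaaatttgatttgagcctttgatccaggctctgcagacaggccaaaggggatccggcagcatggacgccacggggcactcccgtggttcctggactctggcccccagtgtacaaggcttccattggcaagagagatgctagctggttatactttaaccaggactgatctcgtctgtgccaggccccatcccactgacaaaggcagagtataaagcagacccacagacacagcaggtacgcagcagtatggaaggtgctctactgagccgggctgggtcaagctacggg
The Aldoc window holds the core 3 times, beginning 50 bases upstream and 11 and 27 bases downstream of the start. In Pgk1 both matches lie upstream, at −150 and −131. The Pkm window has 2 matches, both on the opposite strand, at −75 and 8. Pgam1 has 3 matches, at −175, −114 and −88.

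Levels are log2 processed signals after subtraction of each array's 75th percentile, so that 0 is the signal at that percentile, and the probe with the highest mean signal stands for its gene. Levels of different genes were not compared, because each probe has its own response. All 21 probes of the 10 genes were well above background on all 24 arrays, and 0 spots were saturated. A gene is said to have risen or fallen where limma's moderated test, fitted on all 24 arrays and adjusted by Benjamini-Hochberg over all 17736 genes, gave a p under 0.05.

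In DKD against Sham 5 of the 10 genes rose and 0 fell: Aldoc, Eno1, Eno2, Pkm and Pklr. Of all genes tested, 11.6% passed in this comparison, 5.47% upward. In DKD+enarodustat against DKD 6 of 10 rose and 0 fell: Aldoa, Aldoc, Pgam1, Eno1, Eno2 and Pkm, where 0.716% of all genes passed, 0.609% upward. Against Sham, the DKD+enarodustat group was higher for the same 6 genes, where 15.5% of all genes passed, 8.74% upward. The median difference of the 10 genes was 0.32 in DKD against Sham, 0.43 in DKD+enarodustat against DKD and 0.61 in DKD+enarodustat against Sham, on the log2 scale, and the medians over all genes were −0.01, 0.00 and −0.02. Aldoc, Eno1, Eno2 and Pkm passed in both the diabetes and the drug comparison, Pklr in the diabetes comparison, and Aldoa and Pgam1 in the drug comparison; the comparisons share arrays, and whether a gene's 2 differences differ was not tested. Scaling to the array median in place of the 75th percentile moved the median of all genes by −0.10, −0.038 and −0.14 in the 3 comparisons, left 1, 1 and 5 members that passed (Aldoc in the first and second, all but Aldoa of the 6 in the last), and lowered the share of higher calls among all genes from 47.2% to 29.0% in DKD against Sham and from 56.4% to 29.9% in DKD+enarodustat against Sham. With 1 array removed at a time, 3 to 5 members passed in DKD against Sham, 2 to 7 in DKD+enarodustat against DKD and 6 or 7 in DKD+enarodustat against Sham; the arrays that ended each call are given with the gene. Each member that passed kept its direction under every alternative run (668 of 668 values).

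**Figure D1:**
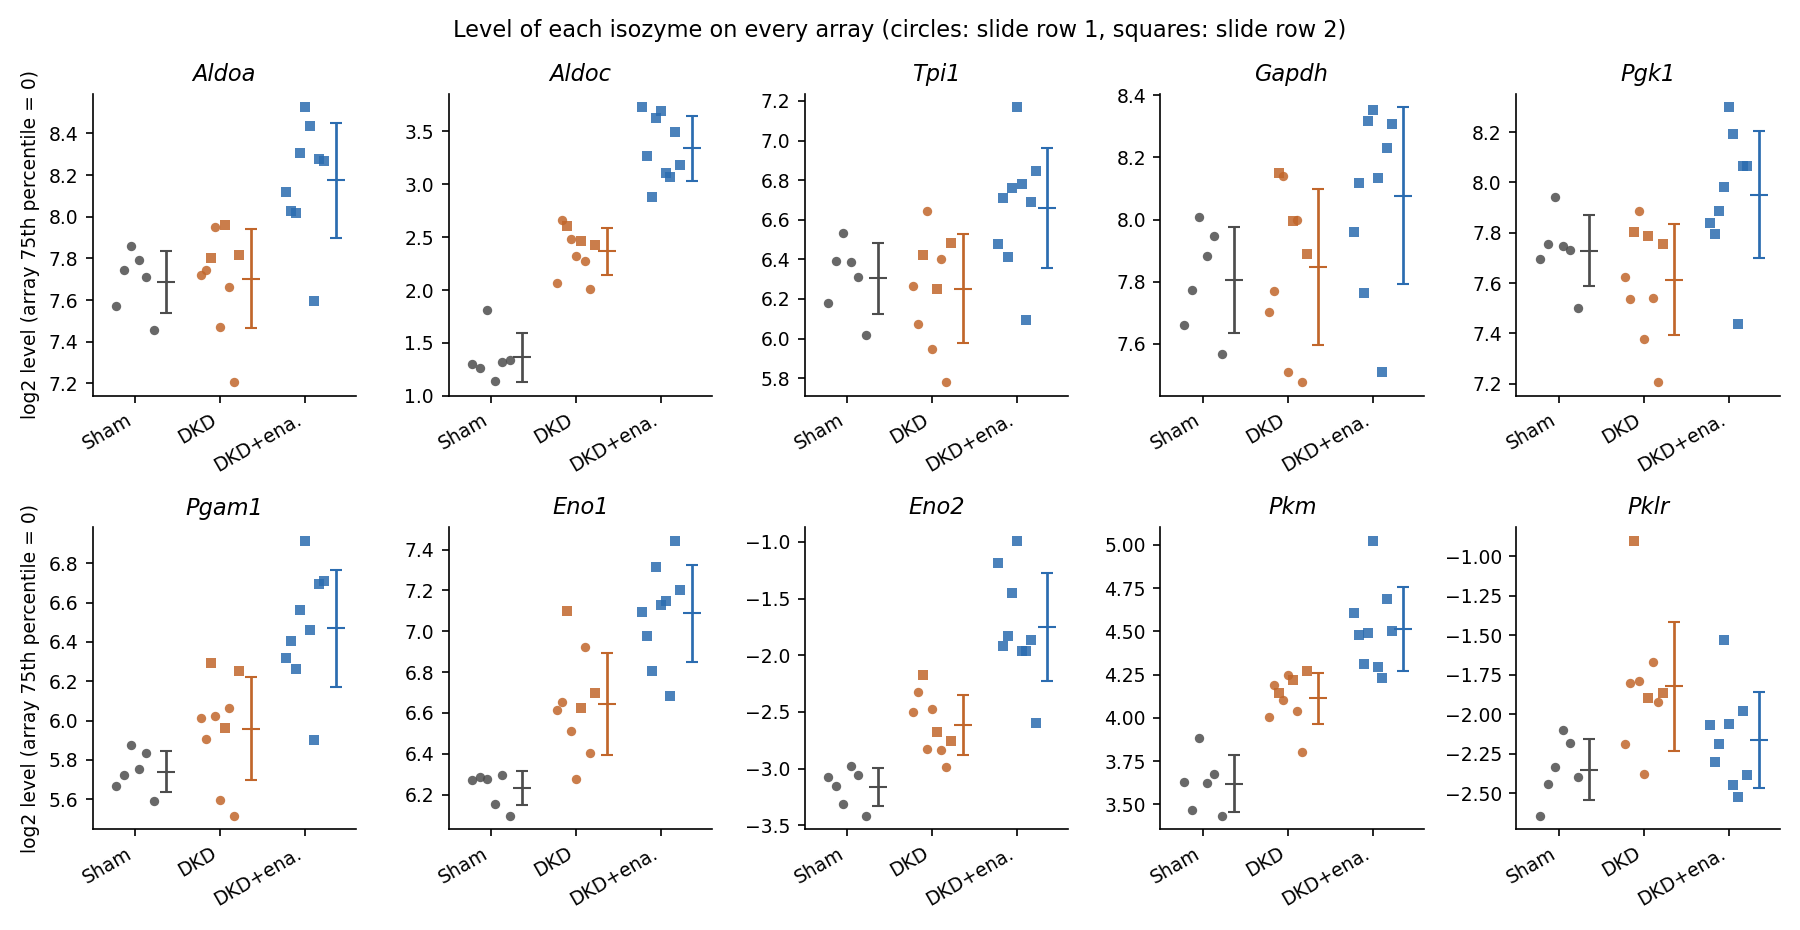
Log2 level of the 10 isozymes (vertical axis, 0 at the array's 75th percentile) on each of 24 arrays in the Sham, DKD and DKD+enarodustat groups. Circles are arrays in slide row 1, squares arrays in row 2, and bars the group mean ± SD. Aldoc forms 3 separate groups, and Pklr is highest in DKD.

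**Figure D2:**
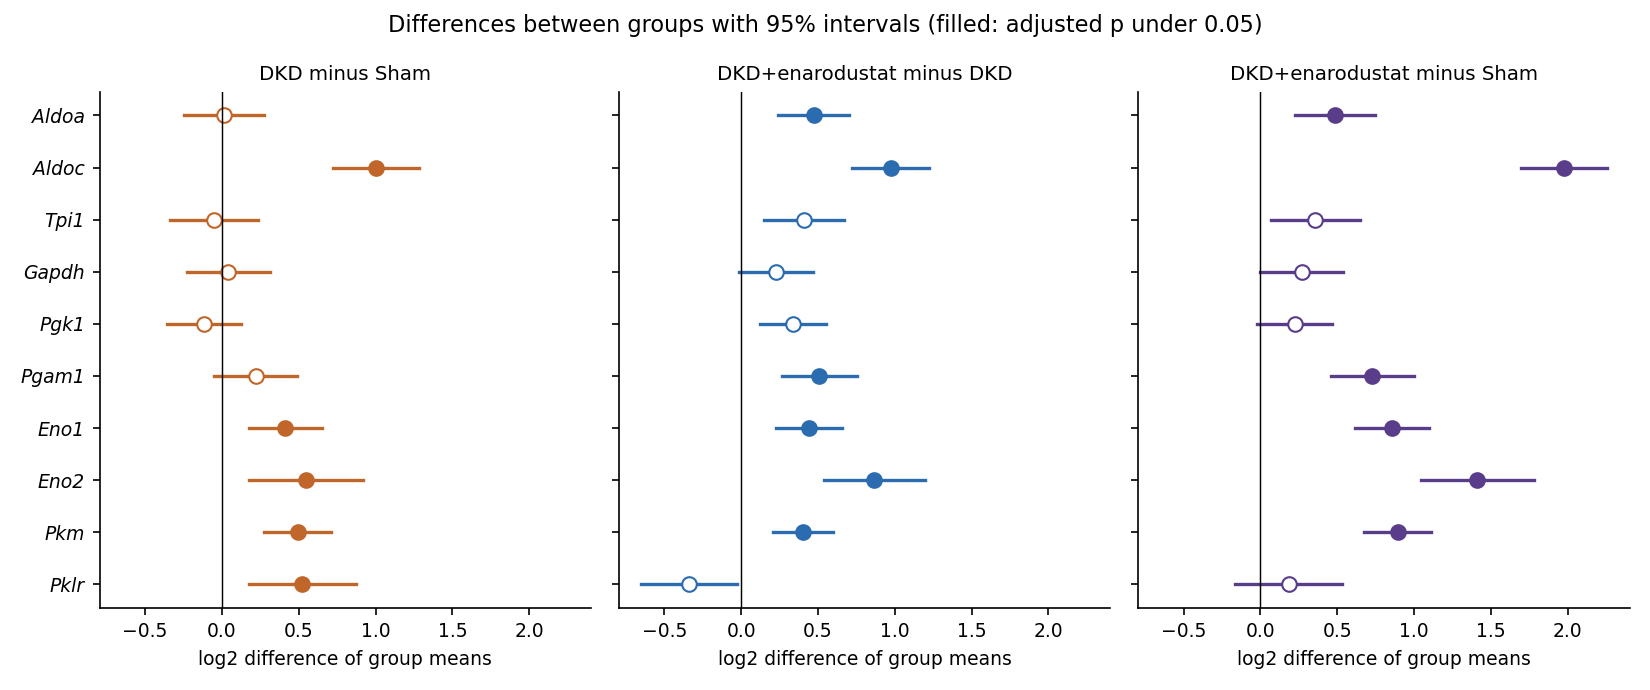
Log2 difference of group means for each isozyme in the 3 comparisons, with 95% confidence intervals from the limma fit. Filled points passed at an adjusted p under 0.05: 5, 6 and 6 of 10. Tpi1, Gapdh and Pgk1 are open in each panel.

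Of the aldolase genes Aldoc rose in each comparison and Aldoa where the enarodustat group was compared. Aldoc, the brain-type aldolase, had a lowest, median and highest level of 1.14, 1.31 and 1.82 in Sham, 2.01, 2.43 and 2.66 in DKD, and 2.88, 3.27 and 3.73 in DKD+enarodustat. The groups did not overlap in any of the comparisons, and Aldoc was the 1 member of 10 with this property in DKD against Sham (3.4% of all genes) and in DKD+enarodustat against DKD (0.147% of all genes). In DKD+enarodustat against Sham 5 members did not overlap, Aldoc, Pgam1, Eno1, Eno2 and Pkm (4.94% of all genes). Aldoc rose by 1.00 ± 0.14 (SE) on the log2 scale in diabetes, a 2.01-fold difference (adjusted p = 6.66e-05), and by a further 0.97 ± 0.12 with enarodustat, 1.96-fold (adjusted p = 7.05e-05). Between the outer groups the difference was 1.98 ± 0.14, or 3.94-fold (adjusted p = 1.96e-09). Within slides 1, 2 and 3 the diabetes difference was 1.16, 0.95 and 0.91, and the drug difference 0.85, 1.06 and 1.01. The other probe of Aldoc, also printed as 10 spots, rose in both comparisons too, by 1.03 with enarodustat.

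Aldoa, the muscle-type and most widely expressed aldolase, differed in the drug comparison. Its levels were 7.46, 7.73 and 7.86 (lowest, median and highest) in Sham, 7.21, 7.74 and 7.96 in DKD, and 7.59, 8.27 and 8.53 in DKD+enarodustat. The Sham and DKD arrays lay in the same range, with a difference of 0.015 ± 0.13 (95% confidence interval −0.24 to 0.27; adjusted p = 0.963). With enarodustat 8 of 9 arrays lay above the DKD mean, and the difference of 0.47 ± 0.11, 1.39-fold, had an adjusted p of 0.0484. That call rested on a narrow margin: only without DKD 4, DKD 6 or enarodustat 7 did the gene still pass when 1 array was removed (adjusted p up to 0.109 otherwise), with differences of 0.41 to 0.54. Within slides it was 0.30, 0.63 and 0.49. DKD+enarodustat exceeded Sham by 0.49 ± 0.13 (adjusted p = 0.0102).

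Tpi1, Gapdh and Pgk1 did not pass in any comparison as fitted here, but in part under other settings. Tpi1, which interconverts the triose phosphates, had levels of 6.02, 6.35 and 6.53 in Sham, 5.78, 6.26 and 6.65 in DKD and 6.10, 6.71 and 7.17 in DKD+enarodustat. Its difference was −0.051 ± 0.14 in diabetes (adjusted p = 0.875) and 0.41 ± 0.13 with enarodustat (95% confidence interval 0.15 to 0.67; adjusted p = 0.164). Gapdh, often used as a reference gene, had levels of 7.57, 7.83 and 8.01 in Sham, 7.48, 7.89 and 8.15 in DKD and 7.51, 8.13 and 8.35 in DKD+enarodustat. Its differences were 0.042 ± 0.13 (adjusted p = 0.892) and 0.23 ± 0.12 (95% confidence interval −0.01 to 0.47; adjusted p = 0.497). The other 5 Gapdh probes gave drug differences of 0.30 to 0.41, all above the 0.23 of the brightest, and Gapdh has processed pseudogene copies that such probes may also bind. Pgk1, the first ATP-yielding step, had levels of 7.50, 7.74 and 7.94 in Sham, 7.21, 7.63 and 7.89 in DKD and 7.44, 7.98 and 8.30 in DKD+enarodustat. It differed by −0.12 ± 0.12 in diabetes (adjusted p = 0.605) and by 0.34 ± 0.10 with enarodustat (95% confidence interval 0.12 to 0.55; adjusted p = 0.171). The groups of all 3 genes overlapped. The intervals of Tpi1 and Pgk1 in the drug comparison exclude 0 before adjustment, and both genes passed after quantile normalization (adjusted p = 0.0053 and 0.00266) and in the deposited values (0.00147 and 0.0212). Pgk1 also passed when enarodustat 7 was left out (adjusted p = 0.0471). Between DKD+enarodustat and Sham the differences were 0.36 for Tpi1 (adjusted p = 0.0852), 0.27 for Gapdh (adjusted p = 0.168) and 0.22 for Pgk1 (adjusted p = 0.208). There all 3 genes passed after quantile normalization (adjusted p = 0.00125, 0.0111 and 0.00372) and in the deposited values (0.0011, 0.00424 and 0.00127), Gapdh also with the mean of its probes (0.0361), and Tpi1 with normexp correction (0.0491) and without enarodustat 7 (0.03).

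Pgam1, which moves the phosphate of 3-phosphoglycerate, had levels of 5.59, 5.74 and 5.87 in Sham, 5.52, 6.01 and 6.29 in DKD and 5.90, 6.46 and 6.92 in DKD+enarodustat. The DKD arrays spread on both sides of the Sham range, with a difference of 0.22 ± 0.13 (adjusted p = 0.323), which passed after quantile normalization (0.29, adjusted p = 0.00464) and in the deposited values (0.25, adjusted p = 0.005). With enarodustat it rose by 0.51 ± 0.12, 1.42-fold (adjusted p = 0.0403), with 8 of 9 arrays above the DKD mean. Within slides the drug difference was 0.26, 0.79 and 0.49. Removal of a single array ended the call in 16 of 24 cases, with adjusted p-values up to 0.0914; the exceptions were Sham 3, 5 and 6, DKD 3 and 9, and enarodustat 1, 3 and 7. All 9 DKD+enarodustat arrays lay above all 6 Sham arrays, with a difference of 0.73 ± 0.13 (adjusted p = 0.000668). The muscle form Pgam2 differed by 0.31 in diabetes (adjusted p = 0.426) and −0.07 with enarodustat (adjusted p = 0.958), and Bpgm, which makes 2,3-bisphosphoglycerate, by −0.07 (adjusted p = 0.804) and 0.08 (adjusted p = 0.909).

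Both enolase genes rose in diabetes and again with enarodustat. Eno1, the ubiquitous enolase, had levels of 6.10, 6.28 and 6.30 in Sham, 6.28, 6.62 and 7.10 in DKD and 6.68, 7.13 and 7.44 in DKD+enarodustat. It rose by 0.41 ± 0.12 in diabetes, 1.33-fold (adjusted p = 0.0213), and the 9 DKD arrays all lay above the Sham mean. This call was kept on leaving out each array in turn and ended with median scaling (0.31, adjusted p = 0.258), with slide row as a term (0.33, adjusted p = 0.0788), with the replicate block (0.40, adjusted p = 0.101) and in slide row 1 alone (adjusted p = 0.0628). With enarodustat it rose by a further 0.44 ± 0.10, 1.36-fold (adjusted p = 0.0426). The second call ended in the deposited values (0.35, adjusted p = 0.0908) and on removal of 20 of the 24 arrays one at a time, with adjusted p-values up to 0.0982; it was kept without DKD 3, DKD 7, enarodustat 3 or enarodustat 7. It also ended with median scaling (adjusted p = 0.436), the row term (0.478), no filter on dim probes (0.0657), the replicate block (0.169) and the 2 groups alone (0.131). The drug calls of Aldoa, Pgam1 and Pkm ended under each of these last settings too. Within slides the diabetes difference was 0.51, 0.25 and 0.48 and the drug difference 0.17, 0.73 and 0.44. The other Eno1 probe gave 0.64 and 0.63. Eno1b, a near-identical copy, differed by 0.42 and 0.44, and the arrays may not separate the pair.

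Eno2, the neuron-specific enolase, was dim, at median raw signals of 28.2 in Sham, 42.1 in DKD and 82.9 in DKD+enarodustat. Its levels were −3.41, −3.12 and −2.97 in Sham, −2.98, −2.68 and −2.17 in DKD, and −2.60, −1.86 and −0.99 in DKD+enarodustat. It rose by 0.55 ± 0.18, 1.46-fold, in diabetes (adjusted p = 0.0477) and by 0.87 ± 0.16, 1.82-fold, with enarodustat (adjusted p = 0.00729), and the total against Sham was 1.41 ± 0.18, 2.66-fold (adjusted p = 1.84e-05). Within slides the differences were 0.78, 0.48 and 0.38 in diabetes and 0.69, 1.19 and 0.72 with enarodustat. The size of these values depended on the background treatment: with normexp correction of the median signals Eno2 differed by 0.17 in diabetes (adjusted p = 0.372) and 0.39 with enarodustat (adjusted p = 0.0417), and in the deposited values by 0.15 in diabetes (adjusted p = 0.314). The diabetes call also ended with quantile normalization (adjusted p = 0.157), median scaling (0.205), no filter on dim probes (0.0645) and the row term (0.0988). It survived removal of DKD 4, DKD 8, enarodustat 1, enarodustat 5 or enarodustat 9. Removal of each of the other 19 arrays ended it, with adjusted p-values up to 0.104. Of 5 neuron markers, Syt1 fell in diabetes (−1.13, adjusted p = 0.000931) and 0 rose in diabetes or with enarodustat; between the outer groups Rbfox3 rose by 0.52 (adjusted p = 0.0406) and Syt1 fell by 1.07 (adjusted p = 0.00125). Eno3, the muscle enolase, differed by 0.26 (adjusted p = 0.103) and −0.03 (adjusted p = 0.957).

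The pyruvate kinase genes both rose in diabetes and differed from each other with enarodustat. Pkm had levels of 3.44, 3.63 and 3.89 in Sham, 3.80, 4.14 and 4.27 in DKD and 4.23, 4.49 and 5.02 in DKD+enarodustat. It rose by 0.49 ± 0.10, 1.41-fold, in diabetes (adjusted p = 0.00312) and by 0.40 ± 0.09, 1.32-fold, with enarodustat (adjusted p = 0.0422). Within slides the differences were 0.56, 0.43 and 0.48 in diabetes and 0.35, 0.41 and 0.44 with enarodustat. The diabetes call was kept on leaving out each array in turn and ended with median scaling (0.39, adjusted p = 0.113). Removal of 16 of the 24 arrays in turn ended the drug call, with adjusted p-values up to 0.0975; Sham 3 and 6, DKD 5, 6 and 9, and enarodustat 3, 6 and 7 were the exceptions. Both Pkm probes carry the same transcript accession, and the M1 and M2 splice forms were not examined separately.

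Pklr, the liver and red cell pyruvate kinase, was dim, at median raw signals of 48.3, 64.5 and 58.2 in Sham, DKD and DKD+enarodustat. Its levels were −2.64, −2.37 and −2.10 in Sham, −2.38, −1.87 and −0.90 in DKD and −2.52, −2.19 and −1.53 in DKD+enarodustat. It rose by 0.52 ± 0.17, 1.44-fold, in diabetes (adjusted p = 0.0443). Within slides this was 0.91, 0.20 and 0.47, and it was 0.28 with normexp correction (adjusted p = 0.121) and 0.26 in the deposited values (adjusted p = 0.118). The call also ended with quantile normalization (adjusted p = 0.146), median scaling (0.227) and no filter on dim probes (0.0598). The row term (0.153), the replicate block (0.0635) and the 2 groups alone (0.0674) ended it too. Pklr still passed when Sham 4, DKD 1, DKD 5 or one of enarodustat 4 to 9 was removed. The other 15 removals ended the call, with adjusted p-values up to 0.105. With enarodustat Pklr differed by −0.34 ± 0.15 from DKD (95% confidence interval −0.65 to −0.03; adjusted p = 0.406), lower than the DKD mean in 8 of 9 arrays. Red cell markers went the other way in diabetes: of 5 tested, Hba-a1 (−0.94), Hba-a2 (−0.93) and Hbb-bt (−0.95) fell, and Hbb-bt rose by 1.11 with enarodustat. The other 4 of the 9 listed were too dim to test.

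The isozymes of a step were then set against each other within each array, as the log2 ratio of the pair with the Sham mean at 0, by exact two-sided permutation tests over 9 comparisons (3 pairs in 3 comparisons, Benjamini-Hochberg). The Aldoc to Aldoa ratio was −0.33 to 0.28 in Sham, 0.67 to 1.25 in DKD and 1.00 to 1.93 in DKD+enarodustat. It rose by 0.99 in diabetes (exact permutation p = 2.00e-04, the smallest the design allows; adjusted 0.000899) and by 0.50 with enarodustat (exact permutation p = 0.000905; adjusted 0.00163), higher than the DKD mean in 9 of 9 arrays. The Pklr to Pkm ratio did not differ detectably between DKD and Sham (0.032, exact permutation p = 0.869) and fell by 0.74 with enarodustat (exact permutation p = 0.000823; adjusted 0.00163), with 9 of 9 arrays below the DKD mean. Its range was −0.66 to 0.92 in DKD and −1.11 to −0.05 in DKD+enarodustat. Within slides 1, 2 and 3, where 3 arrays against 3 are too few to pass, the drug differences had the same sign, at 0.55, 0.43 and 0.53 for aldolase and −0.91, −0.40 and −0.91 for pyruvate kinase (exact permutation, adjusted p = 0.15 to 0.386). Both passed within slide row 2, at 0.53 and −0.91 (exact permutation, adjusted p = 0.0341 for each), and with normexp correction (0.46 and −0.61) and in the deposited values (0.45 and −0.55). The −0.91 of row 2 rested in part on DKD 3, with a ratio of 0.92, where DKD 6 and DKD 9, the other DKD arrays of that row, were at −0.15 and −0.16. The Eno2 to Eno1 ratio had no direction that held across background treatments. It differed by 0.13 in diabetes, 0.42 with enarodustat and 0.56 between the outer groups (adjusted 0.372, 0.0618 and 0.039, exact permutation). With normexp correction it differed by −0.25, −0.046 and −0.29. That correction adds an offset of 50, where median Eno2 signals were 28.2 in Sham and 82.9 in DKD+enarodustat. Such an offset shrinks the log2 differences of the dim Eno2 and hardly moves those of the bright Eno1. The normexp values alone therefore cannot decide the direction of this ratio, and how much of the change in sign the offset accounts for was not tested. In the deposited values, whose background steps are not given, the ratio was also negative in diabetes and between the outer groups. With enarodustat it was positive there. The call between the outer groups (0.56) ended without Sham 1, 2, 3, 5 or 6 or without enarodustat 1, 2, 3, 4, 5 or 7.

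**Figure D3:**
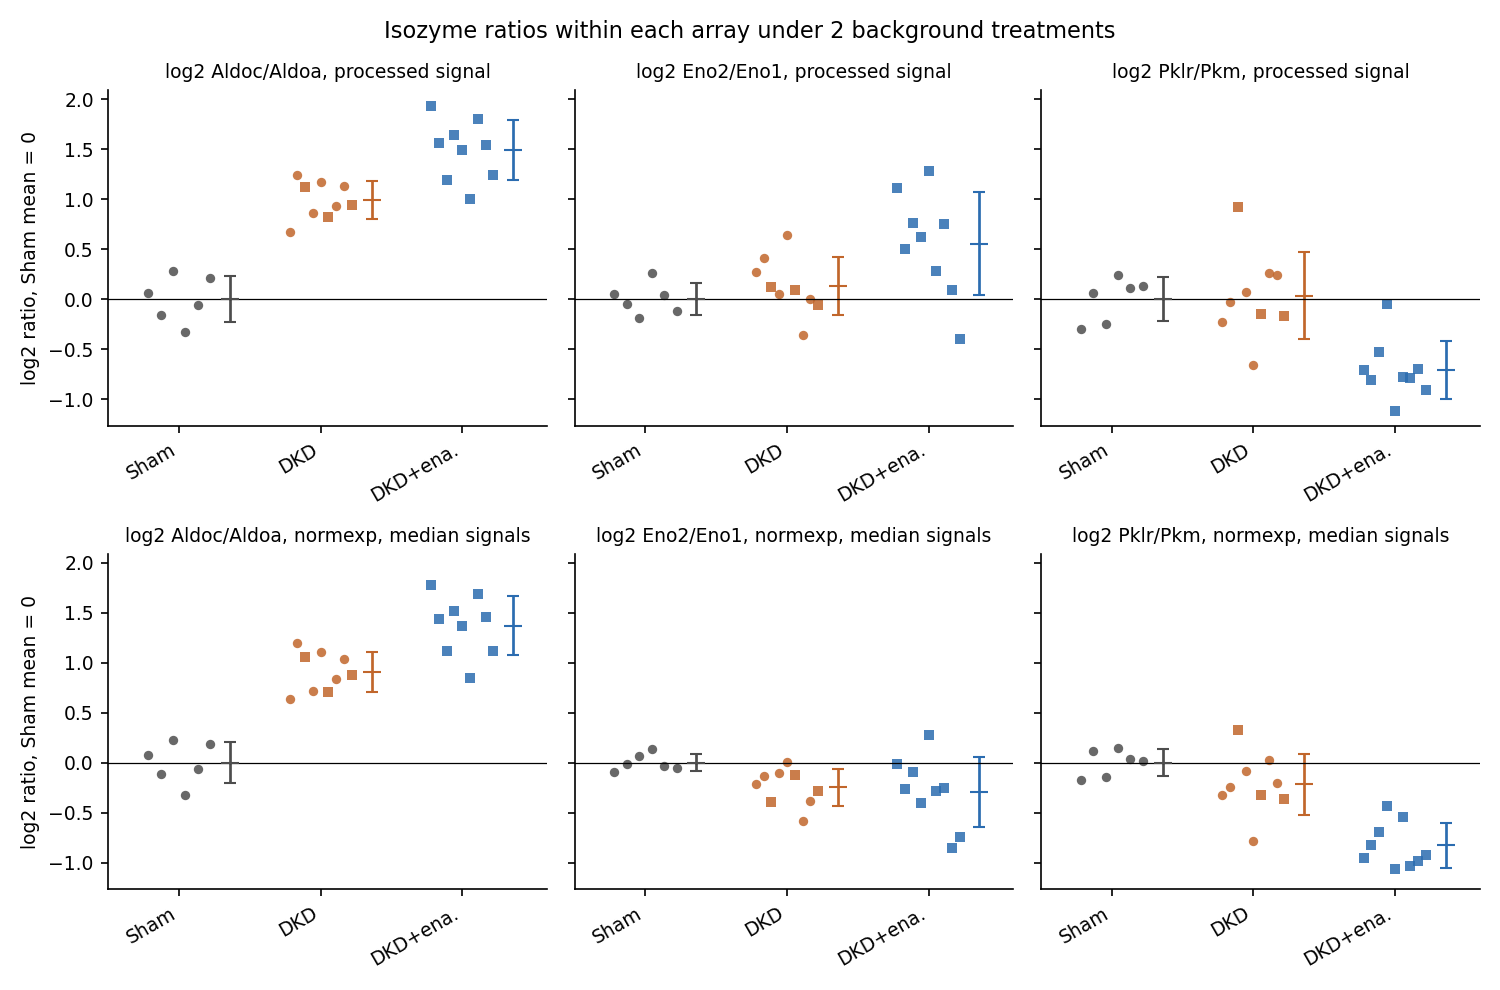
Log2 ratio of each isozyme pair on every array, with the Sham mean at 0, by group, from the processed signals (top) and after normexp correction of the median signals (bottom). Circles and squares are slide rows 1 and 2 and bars the mean ± SD. Aldoc/Aldoa climbs and Pklr/Pkm drops with enarodustat in both rows of panels, while Eno2/Eno1 is above 0 on average in the top row and below 0 in the bottom row. The normexp offset of 50 shrinks the log2 differences of the dim Eno2, so the bottom row alone cannot decide the direction of Eno2/Eno1. How much of the change in sign this accounts for was not tested.

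Position on the slides was not balanced. All groups were spread over the 3 slides, but all Sham arrays lay in slide row 1, all DKD+enarodustat arrays in row 2, and the DKD arrays in both (6 and 3). Within the DKD group all 10 genes had a higher mean on the 3 arrays of row 2 than on the 6 of row 1, by 0.12 (Eno2) to 0.40 (Pklr). With the row as a term, 2 of 10 members passed in DKD against Sham (Aldoc 0.94, adjusted p = 0.000548; Pkm 0.44, adjusted p = 0.014), 0 in DKD+enarodustat against DKD and 3 in DKD+enarodustat against Sham (Aldoc 1.78, Eno2 1.29 and Pkm 0.75, adjusted p = 0.00016, 0.018 and 0.0174). In that limma fit 20 of 17736 genes passed in the drug comparison. The drug differences with the row term were 0.84 for Aldoc (adjusted p = 0.0537), 0.78 for Eno2 (adjusted p = 0.222), 0.32 for Aldoa, 0.30 for Pgam1 and Pkm, 0.28 for Eno1 and Tpi1, 0.17 for Pgk1, 0.06 for Gapdh and −0.61 for Pklr. That fit compares 9 treated arrays with 3 untreated ones for the drug, and how much of each drug difference belongs to the row was not tested further.

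**Figure D4:**
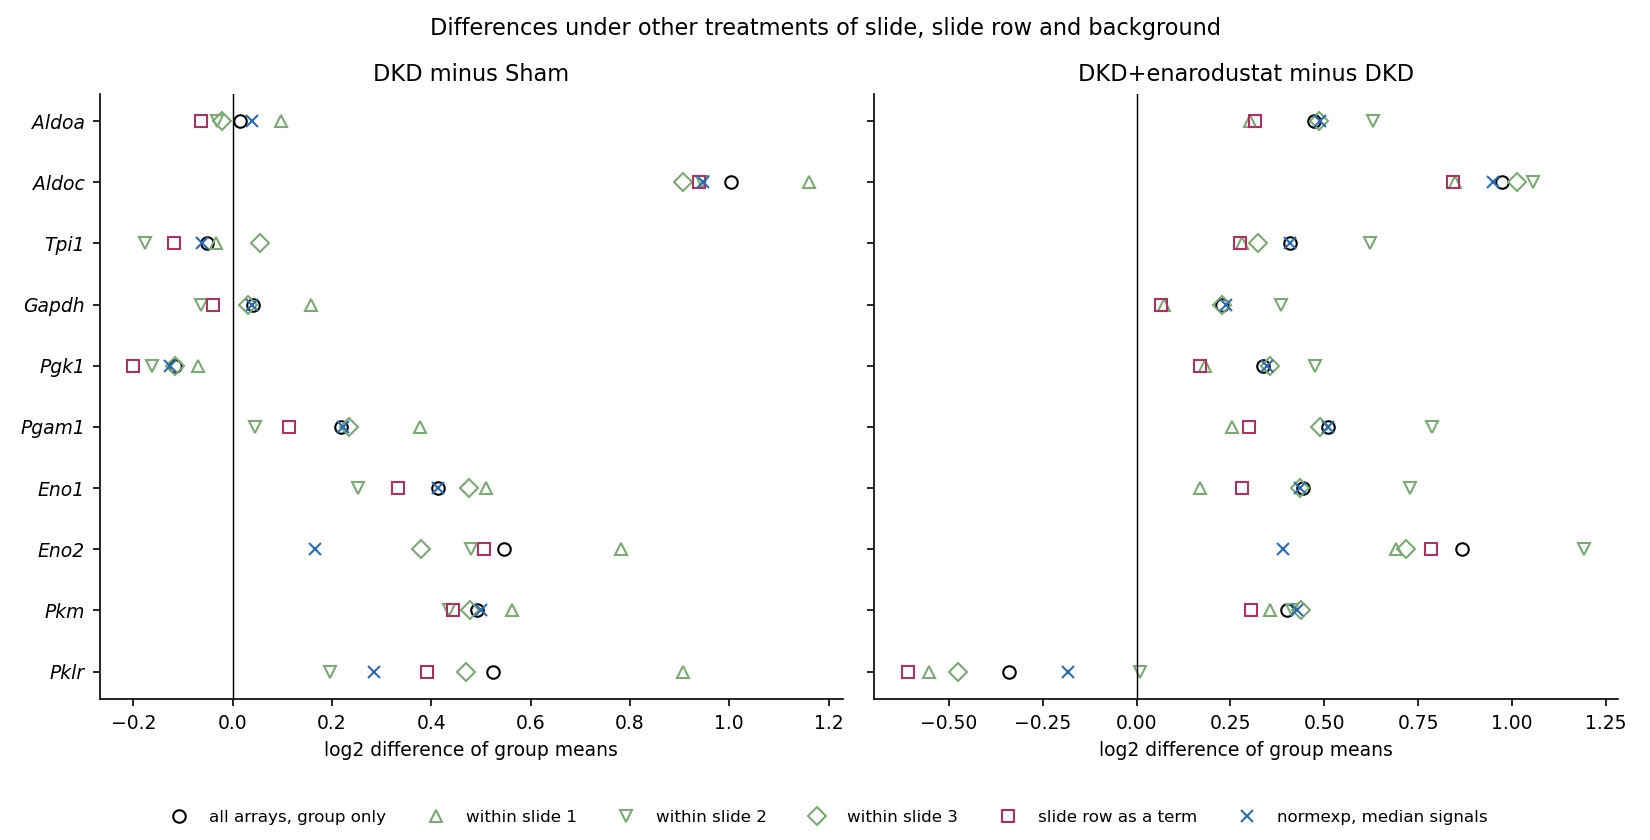
Log2 difference of group means for the 10 isozymes in DKD against Sham (left) and DKD+enarodustat against DKD (right), from all arrays, within each slide, with slide row as a term, and after normexp correction. Aldoc lies between 0.84 and 1.16 throughout, and Eno2 is the gene most reduced by normexp correction.

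Apart from group means, the scaled levels of the members varied together from array to array. Deviations from group means correlated positively in all 45 pairs over 24 arrays, and 31 passed at an adjusted p under 0.05 (100000 permutations within groups). Aldoa and Pgk1 were closest (Pearson r = 0.96, Spearman rho = 0.94, permutation p = 1e-05 for both, the smallest the resamples can give; adjusted 4.5e-05 and 9e-05), with r = 0.93 without the 2 arrays farthest from the median and 0.95 with slide means removed. Aldoa, Tpi1, Gapdh, Pgk1 and Pgam1 had r of 0.84 to 0.96 with each other. Aldoc and Pkm had r = 0.75 (rho = 0.78; permutation p = 5e-05 and 1e-05; adjusted 0.000205 and 9e-05), and 0.74 without the 2 farthest arrays. Eno2 stood lowest: its r with Aldoa, Tpi1, Gapdh, Pgk1, Pgam1 and Eno1 was 0.14 to 0.27 and passed in none of these pairs. Every level on an array shares that array's scaling, which moves all members together. Permuting arrays within groups does not separate this scaling from variation between mice, so the r and p-values are not a measure of the latter. Enarodustat 7 had the lowest level of its group for 8 of the 10 genes, all but Aldoc and Eno2. That array also had the highest 75th percentile of the 24, at a signal of 388.

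**Figure D5:**
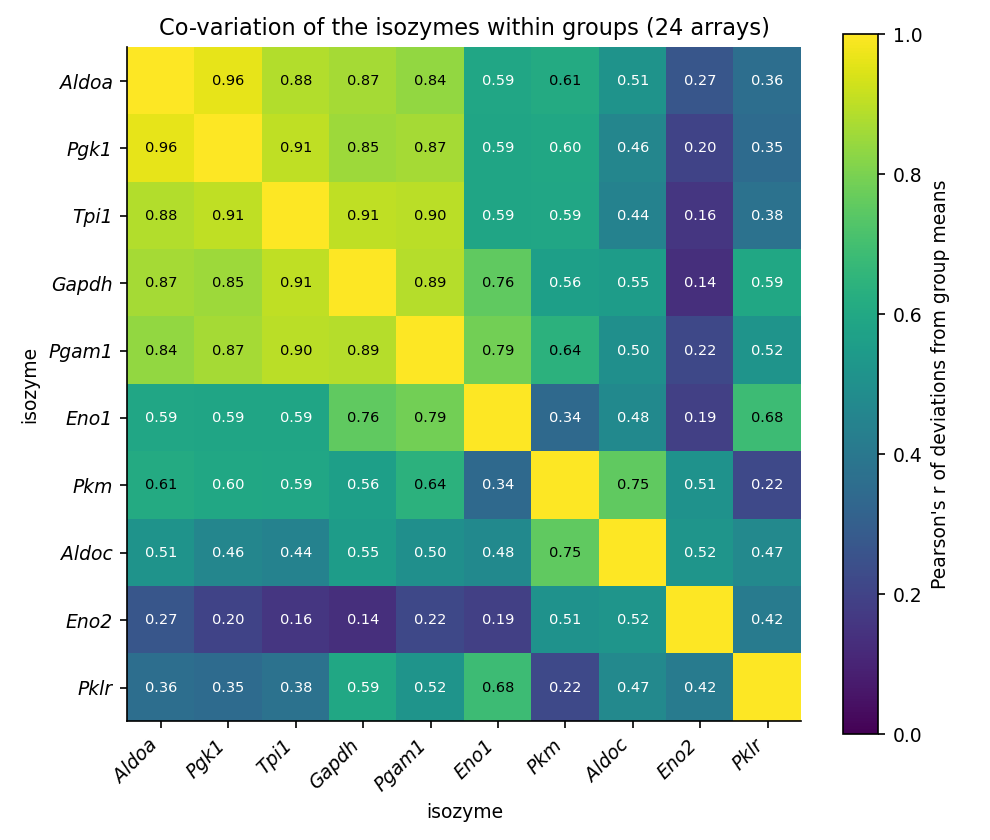
Pearson's r between isozymes (both axes) of the deviations from group means over 24 arrays, as colour and number. Aldoa, Pgk1, Tpi1, Gapdh and Pgam1 form a block at 0.84 to 0.96, and Eno2 has the lowest values.

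The rest of the pathway moved in part, mainly with enarodustat. Of 25 other glycolysis genes 24 could be tested (Gapdhs was too dim): 2 rose in diabetes, 6 with enarodustat and 7 between the outer groups, and 0 fell; the medians were 0.00, 0.19 and 0.23. Of all genes tested 5.47%, 0.609% and 8.74% rose in these comparisons, so the count in diabetes was near the share of all genes. Pfkl, a phosphofructokinase subunit, rose by 0.42 in diabetes (adjusted p = 0.0199) and 1.17 with enarodustat (adjusted p = 2.72e-07). Eno1b, which the arrays may not separate from Eno1, was the other gene that rose in diabetes. Hk2, an inducible hexokinase, differed by −0.61 in diabetes (adjusted p = 0.322) and rose by 1.84 with enarodustat (adjusted p = 0.00525); it was well above background on 4 of 6 Sham, 3 of 9 DKD and 9 of 9 DKD+enarodustat arrays, so the sizes of its differences are uncertain. The phosphofructokinase Pfkp rose by 1.13 with enarodustat (adjusted p = 7.43e-05), Pfkfb3, which makes its activator, by 0.64 (adjusted p = 0.00701), and Gpi1, the isomerase before it, by 0.60 (adjusted p = 0.000259), and none of these passed in diabetes. Ldha, which turns pyruvate into lactate, differed by −0.11 in diabetes (adjusted p = 0.68) and 0.47 with enarodustat (adjusted p = 0.0643), and Hk1 by 0.27 (adjusted p = 0.0655) and −0.07 (adjusted p = 0.867). Between the outer groups the differences were 1.58 for Pfkl, 1.11 for Pfkp and 0.86 for Eno1b.

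Of 20 HIF targets outside glycolysis 3 rose and 1 fell in diabetes, 10 rose with enarodustat and 13 rose between the outer groups. The shares of all genes that rose were 5.47%, 0.609% and 8.74%. Slc16a3, a lactate exporter, rose by 1.29 (adjusted p = 0.000113) and 3.03 (adjusted p = 4.27e-11), Egln3, a HIF prolyl hydroxylase, by 1.02 (adjusted p = 0.00489) and 1.48 (adjusted p = 0.000244), and Ankrd37 by 0.69 (adjusted p = 0.0173) and 2.05 (adjusted p = 7.25e-08). Ddit4 rose with enarodustat by 1.01 (adjusted p = 0.032), and Pdk1, which limits pyruvate entry into mitochondria, was higher in DKD+enarodustat than in Sham by 1.88 (adjusted p = 0.00167). Egln1 fell in diabetes by 0.22 (adjusted p = 0.0276) and rose with enarodustat by 0.33 (adjusted p = 0.00358). The genes most like the 3 members of the largest moderated F, Aldoc, Pkm and Eno2, were sought among 15100 genes well above background on all arrays, by Pearson's r over 24 arrays. For Aldoc they were Pdxp (0.95), Egln3 (0.94), Slc16a3 (0.93) and Higd1b (0.92), for Pkm Pdxp (0.93), Prelid2 (0.93), Upp1 (0.93) and Egln3 (0.92), and for Eno2 Pdxp (0.91), Stc2 (0.90), Slc16a3 (0.89) and Prelid2 (0.89). Within groups these r were 0.45 to 0.77. Pdxp differed by 0.78 in diabetes and by 1.06 with enarodustat. These differences are no separate support, since the gene was picked for its likeness to the members over the same arrays and groups.

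Markers of some cell types moved in the same comparisons. Of all genes tested 11.6% passed in diabetes, 0.716% with enarodustat and 15.5% between the outer groups. Kidney tubule markers were present: proximal tubule markers, summed on the linear scale relative to the 75th percentile, ranged over 1085 to 1323 in Sham, 910.5 to 1267 in DKD and 880.9 to 1106 in DKD+enarodustat. Of these 10 markers 1 rose and 2 fell in diabetes, 0 passed with enarodustat and 3 fell between the outer groups. Loop of Henle markers moved both ways in diabetes (2 of 5 rose and 2 fell), and 3 of 10 lymphocyte, 1 of 8 macrophage and 2 of 4 tested neutrophil markers fell, the macrophage count being near the share of all genes. None of these 4 lists had a member that passed with enarodustat. Principal cell markers rose in diabetes in 7 of 8 (all but Scnn1b), with sums of 27.7 to 36.7 in Sham and 43.3 to 53.1 in DKD, and 0 of 8 passed with enarodustat. Endothelial markers rose with enarodustat in 4 of 8 (Cdh5, Ehd3, Emcn and Plvap), with sums of 34.5 to 41.9 in DKD and 41.3 to 50.5 in DKD+enarodustat. Of 3 skeletal muscle markers tested 0 passed in any comparison, and Ckm and Myh4 were too dim to test. The part of these cell types in the differences of the isozymes was not tested.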

How the data were processed

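Kidney total RNA of 24 mice was hybridised to 1 Agilent array each (design 074809). Per the file headers, the deposited scanner files hold spot intensities that Agilent Feature Extraction 12.1.1.1 had background-subtracted and detrended; per the submitters' processing notes, version 11.5.1.1 and limma were used, in roles not given in the sources used here. Beside them, the authors' deposited value table holds log2 values of 31409 probes, not centred per gene (array medians 7.543 to 7.559), which correlated at 0.976 or more with the log2 scanner signals; its background and scaling steps are not given, and it served as an alternative. The replicates were taken as separate mice from the group sizes in the series text.

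Control spots were left out, spots of a probe averaged, and probes named by accession through RefSeq (GRCm38.p6): 32994 of 56605 probes got a symbol. The array grid names another build, so the coordinates given are only those of the RefSeq promoter windows. The value of an array is log2 of the processed signal minus its 75th percentile (at signals of 187 to 388). Between 37716 and 44732 spots of an array were well above background; precision is limited by the number of arrays. A gene, represented by its probe with the highest mean signal, was tested if well above background on at least 6 arrays. limma 3.58.1 (R 4.3.3) fitted group means over all 24 arrays; the script was tested on simulated data. Isozyme ratios were compared by exact permutation tests (numpy 2.4.6). The members, gene lists and tests were chosen with earlier results of these data known. Named beside the members were up to 4 genes per direction, comparison and list with the largest change among those that passed, fixed same-step and entry-step isozymes, and the 4 genes most like each of 3 members. Some genes that this rule names are not reported here.

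Alternatives were the mean of probes, quantile and median scaling, normexp with an offset of 50, the deposited values, other filters, slide and slide row terms, single slides, the replicate block, 2-group fits and leaving out each array. The normexp alternative used median signals, since mean signals were not among the columns. Enarodustat 3 carries a quality warning of the scanner software and was retained. Replicate numbers were not used to pair the arrays in the main fit, since the labels do not say that they do. Deviations of same-numbered arrays correlated at −0.358 to 0.282 (21 pairs, median 0.097), against a median of −0.024 for other numbers. Of 24 arrays, 3 correlated best with their own number. Such correlations cannot exclude a pairing.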

Additional observations from a re-analysis of the deposited data

Results flagged for a closer look

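The highest and lowest array of each group were checked for each of the 10 genes (30 groups of 6 or 9 arrays), of which chance alone would mark about 1 in 20. Sham 3 had an Aldoc level of 1.82, where the next Sham array was at 1.34, a gap of 0.699 of the group's range. Without it the Aldoc difference between DKD and Sham was at the upper end of its leave-one-out range, at 1.09. DKD 3 had a Pklr level of −0.90, where the next DKD array was at −1.67, a gap of 0.518 of the range. Without it Pklr differed between DKD and Sham by 0.41 and no longer passed.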

How the results depend on the processing

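All 17 calls of a member kept their sign under every alternative tried, and 455 of the 668 values passed. Aldoc lost its call in the drug comparison with the slide row term, in slide row 2 alone and within single slides. It also lost its call within each slide in DKD against Sham, and within slide 1 in DKD+enarodustat against Sham. The counts are given below as members and then all genes that passed; they were 5 and 2058 in DKD against Sham, 6 and 127 in DKD+enarodustat against DKD, and 6 and 2748 in DKD+enarodustat against Sham. In DKD against Sham they moved by more than 1.5 times to 1 and 1303 with median scaling, to 3 members with normexp, without a filter, with the replicate block or in slide row 1 alone, and to 2 with the row term. In DKD+enarodustat against DKD they moved to 1 and 36 with median scaling, 2 and 83 without a filter, 0 and 20 with the row term, 0 and 11 in slide row 2 alone, and 2 and 47 with the 2 groups alone. With the replicate block, a pairing that the labels do not state, they were 2 and 66 there. In DKD+enarodustat against Sham they moved to 3 and 889 with the row term. Within slides 1, 2 and 3 the pairs were 0 and 15, 0 and 0, and 0 and 9 in the first comparison, 0 and 4, 0 and 3, and 0 and 0 in the second, and 0 and 36, 1 and 30, and 1 and 7 in the last, each from at most 6 arrays in 2 groups. Leaving out 1 array gave 3 to 5 members and 1471 to 2260 genes, 2 to 7 and 71 to 128, and 6 to 7 and 1967 to 3040. In the drug comparison 71 genes passed without enarodustat 8, 82 without enarodustat 4 or DKD 7, and 84 without enarodustat 5 or 6.

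The differences that turned sign had not passed, apart from the Eno2 to Eno1 ratio between the outer groups (0.56). In DKD against Sham, Aldoa was −0.090 with median scaling, −0.063 with the row term or row 1 alone, and −0.032 and −0.020 in slides 2 and 3; Gapdh was −0.063 with median scaling, −0.040 with the row term or row 1 alone, −0.063 in slide 2 and −0.056 by probe 4; Tpi1 was 0.021 after quantile normalization and 0.055 in slide 3; Pgk1 was 0.053 in the deposited values. Pklr was 0.010 in slide 2 in DKD+enarodustat against DKD, and −0.22 (row term) and −0.0059 (slide 3) against Sham, where Pgk1 was −0.031 with the row term. Leaving out 1 array took the DKD against Sham difference from −0.032 to 0.077 for Aldoa, −0.11 to 0.0077 for Tpi1, −0.0061 to 0.088 for Gapdh and −0.079 to 0.12 for the Pklr to Pkm ratio. That ratio was −0.22 with normexp, −0.34 in the deposited values, −0.24 and −0.0084 in slides 2 and 3 and −0.053 in row 1. The Eno2 to Eno1 ratio was −0.25, −0.046 and −0.29 in the 3 comparisons with normexp, −0.33 and −0.28 in the first and last in the deposited values, and −0.098 in the first in slide 3. The normexp offset of 50 shrinks the log2 differences of dim genes such as Eno2 and Pklr. How much of the normexp changes this accounts for was not tested, nor was the cause of the others. Eno2 and Pklr, with median signals under 83, were the members nearest the background.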
